A study of Mus musculus with 6 samples.

Results

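Mouse chromosome 16 was followed probe by probe in the genomic DNA of 5 malignant mesotheliomas, tumours of the lining of the body cavities. The probes were chosen by position alone: every non-control probe that the mm7 annotation of the denser array design places on this chromosome, 8897 of 235390 probes with a position. They run over chr16:3016810-98465647, and 821 gene names are attached to them. No ratio entered the choice of probes, but the chromosome was singled out with results of these arrays already known, so its levels are given as a description.

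The study examined primary mesothelioma cells of Arf(+/-) mice, heterozygous for loss of Arf, whose product activates the p53 pathway. The series title speaks of asbestos-induced tumours of Arf knock-out mice, and the design text gives the Arf(+/-) genotype for 4 mice where the titles name 5 tumours, ARF-129, ARF-112, ARF-110, ARF-104 and ARF-128. Which title lies outside those mice is not known, and ARF-104 is the only one without a cell type in its labels. Tumour DNA carried Cy5 and normal C57BL/6J DNA carried Cy3 on all 6 arrays with no dye swap, so a positive log2 ratio means more DNA in the tumour than in the reference. Strain, sex, age and tumour cell content are not given in the sources used here, and neither is the share of normal cells in each preparation. The labels' numbers were taken as separate animals, and p-values measure only the spread between these tumours.

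In array comparative genomic hybridisation both DNAs compete for the same 60-base probes. A ratio of 0 stands for the median autosomal level of that array, and gain of 1 copy in every cell of a diploid tumour would give 0.58 and loss of 1 copy -1. Mouse chromosome 16 carries, from its proximal to its distal end, the region matching the human DiGeorge syndrome interval, the Lpp and Bcl6 region, several very large neuronal adhesion genes such as Robo1, Robo2 and Cadm2, and, near its distal end, most mouse counterparts of genes in the human Down syndrome region. Interferon and cytokine receptor genes and the leukaemia genes Runx1 and Erg lie in that distal part.

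ARF-104, ARF-112, ARF-128 and ARF-129 were read on the denser design, with 8894 to 8896 chromosome 16 probes each and a median spacing of 7738 bp. ARF-110 was read on a sparser design only, with 1447 probes and a spacing of 24180.5 bp. ARF-128 was read on both, and its arrays count as 1 tumour represented by the denser array. The probe noise, an SD of the log2 ratio estimated from neighbouring probes, was lowest in ARF-110 at 0.15. It was 0.36 in ARF-104 and 0.39 in ARF-112, rose to 0.49 in ARF-129 and reached 0.78 for the denser array of ARF-128, whose sparser array had 0.43. The ARF-128 arrays did not follow each other along the chromosome: over 89 bins of 1 Mb, which share the tumour but not the array or the scan day, their ratios correlated at r = -0.24, with a median absolute difference of 0.12. Each array formed 1 segment on the measured ratios, so the bins held no called step to share. Some sparser bins were extreme, such as chr16:80000001-81000000 at -1.42, against 0.20 on the denser array.

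ARF-129 stood apart from the other tumours over the whole chromosome. Its mean log2 ratio was 0.29, or 122% of the reference, and all 96 of its 1 Mb bins lay above 0, between 0.04 and 0.46. Among the others ARF-128 had a mean of -0.02, with -0.07 on its sparser array, ARF-112 of -0.03, ARF-110 of -0.05 and ARF-104 of -0.09. These 4 lay within 0.1 of the autosomal median, and ARF-104 was below 0 in 92 of 96 bins.

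The mean over the 5 tumours was 0.02 ± 0.15 (SD, n = 5), and -0.05 ± 0.03 (SD, n = 4) without ARF-129. Flipping the signs of the tumours in an exact permutation test, two-sided, gave p = 1 (adjusted p = 1 over 19 autosomes), where the smallest p that 5 tumours allow is 0.0625. Among the autosomes of ARF-129, chromosome 16 ranked 5th, next to chromosome 17 at 0.30 above it and chromosome 13 at 0.13 below it. In the other tumours it ranked 5th in ARF-128, 10th in ARF-112, 12th in ARF-110 and 13th in ARF-104.

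**Figure D1:**
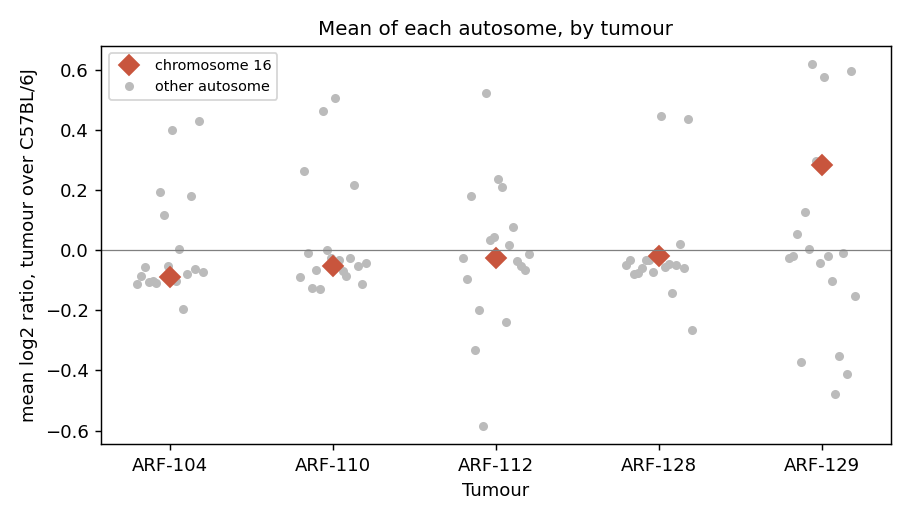
Mean log2 ratio of tumour over C57BL/6J reference (vertical axis) for each autosome in the 5 tumours (horizontal axis); diamonds are chromosome 16 and grey points the other autosomes. The ARF-129 diamond stands at 0.29, and the other diamonds lie between -0.09 and -0.02.

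On the measured ratios at the standard penalty, segmentation called part of the chromosome gained in ARF-129 and nothing gained or lost in the other tumours. A segment was called at a mean of 0.25 or beyond. In ARF-129 the proximal segment, chr16:3016810-38787722, had a mean of 0.34 over 3958 probes and was called gained, while the distal segment, chr16:38817423-98465647, had a mean of 0.24 over 4936 probes and fell just short of the call. The called bins were 36 of 89, or 40.4%, against 20.5% gained over all autosomal bins of that tumour. No bin was lost, where 26.6% of its autosomal bins were.

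None of the 89 bins was called in the other tumours. Over all autosomes ARF-104 had 17.1% of bins gained and 1.19% lost, and ARF-110 had 13% gained and 3.76% lost. ARF-112 had 8.99% gained and 15.1% lost, and ARF-128 had 7.89% gained and 1.79% lost, with 7.89% and 1.65% on its sparser array. The threshold decides how much of ARF-129 counts as gained: 100% of bins at a call of 0.15 and none at 0.40.

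**Figure D2:**
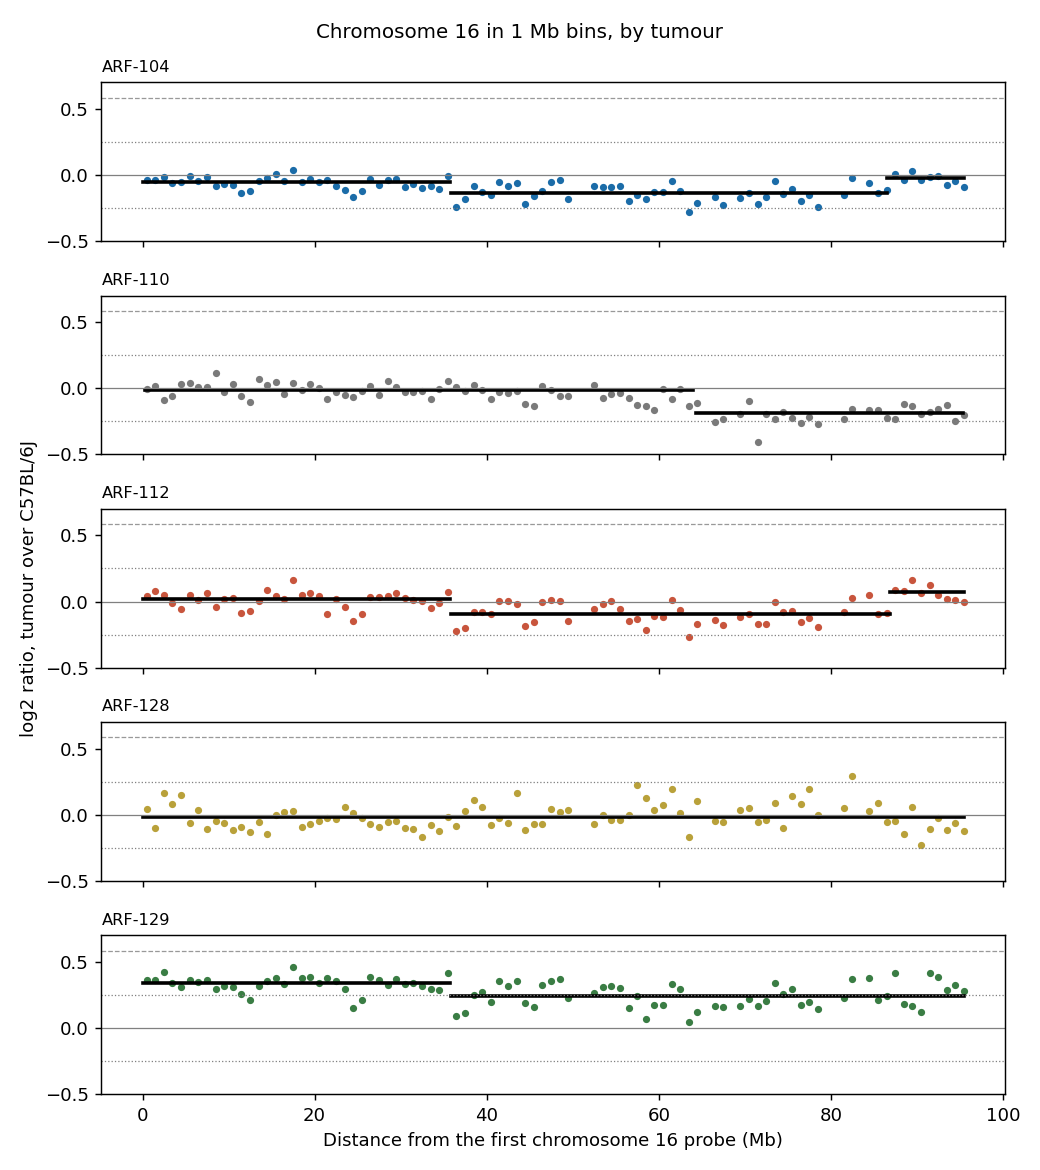
Log2 ratio of tumour over C57BL/6J reference (vertical axis) in 1 Mb bins along chromosome 16 (horizontal axis, Mb from the first probe) for each tumour; black bars are segment means, dotted lines the call threshold and dashed lines the level of 1 gained copy. ARF-129 is above 0 throughout and ARF-110 steps down in its distal part.

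One step lay at the same place in 3 tumours on the measured ratios. ARF-129, ARF-104 and ARF-112 each changed level across the same 29.7 kb between chr16:38787722 and chr16:38817423, where the neighbouring probes carry no gene name. The distal side was lower by 0.09 in ARF-129, by 0.08 in ARF-104 and by 0.11 in ARF-112. All probes distal to this place minus all proximal ones gave -0.06 in ARF-104, -0.08 in ARF-112 and -0.09 in ARF-129. The same measure was -0.12 in ARF-110, -0.08 on the sparser ARF-128 array and 0.06 on the denser one. On the measured ratios neither ARF-110 nor ARF-128 was split at this place, and the ARF-110 value takes in its own step, given below. With the probe effect described below removed, the distal side began at chr16:38743446 in ARF-112, chr16:38787663 in ARF-104 and chr16:38864580 in ARF-129. With normexp background correction ARF-129 had no step there. The arrays of ARF-129, ARF-104 and ARF-112 were scanned on the same day, and the part of the scan day in the step was not tested. A regression on the GC content of probes and of their surroundings, chosen after seeing the data, left ARF-129 and ARF-104 as 1 segment each, at 0.30 and -0.08, and placed the ARF-112 step beyond 39 Mb. ARF-104 and ARF-112 also stepped up near the distal end, by 0.11 at chr16:89537348 and by 0.17 at chr16:89871311, inside Tiam1, a Rac activator. At the looser penalty of 3 log n, ARF-129 also stepped up, by 0.22, across the same probe pair as ARF-112.

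ARF-110 had a step of its own. Its 1105 proximal probes had a mean of -0.01 and its 342 distal probes a mean of -0.18, so that the DNA distal to the step stood at 88.1% of the reference. The difference, distal minus proximal, was -0.17 with an SE of 0.01 from probe noise. Over the same positions it was 0.03 in ARF-128 but -0.06 on its sparser array, -0.02 in both ARF-112 and ARF-104, and -0.06 in ARF-129. The segment did not reach the call of -0.25, and at a call of 0.15 it made 30.3% of the bins of ARF-110 lost. The split was placed on these same ARF-110 ratios, so the difference is a description. With normexp background correction ARF-110 also stepped down earlier, from 0.02 to -0.05 beyond chr16:41906566, before reaching -0.15 distally.

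The ARF-110 step fell between chr16:67036900 and chr16:67390750, and both flanking probes lie in Cadm2, a neuronal cell adhesion gene. The sparser design has no probe in the 354 kb between them, where the denser design has 48. The flanking probes are shown because they bound the step; their ratios in ARF-110 were 0.15 and -0.38.
proximal Cadm2 probe, chr16:67036841-67036900: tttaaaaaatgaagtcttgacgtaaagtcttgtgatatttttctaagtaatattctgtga
distal Cadm2 probe, chr16:67390750-67390809: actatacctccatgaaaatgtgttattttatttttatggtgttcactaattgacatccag
The sequences are those of the deposited file, in its mm7 coordinates, and are printed in its letter order, with the strand not given here. The sparser ARF-128 array, of the same design as that of ARF-110, read 0.05 and -0.89 at the same pair, a larger drop than in ARF-110. ARF-104 read -0.76 and -0.68. The pair bounds the step but does not by itself show it.

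The list of very large and adhesion genes, which lie on both sides of the ARF-110 step, had 12 of 17 values below 0 in ARF-110 with a median of -0.12, against 381 of 659 names and a median of -0.03 on the whole chromosome. Robo2, an axon guidance receptor distal to the step, had a ratio of -0.57 over 3 probes in ARF-110, and the sparser ARF-128 array read -0.84 there. Robo1, its paralogue, read -0.15, and Ncam2, a neural adhesion gene, -0.32. Epha6 and Lsamp, proximal to the step, read -0.08 and -0.05. The list's median also lay under that of all 821 gene names in ARF-104, at -0.16 against -0.07, in ARF-112, at -0.12 against 0.02, and in ARF-129, at 0.19 against 0.31, but not in ARF-128, at 0.05 against -0.04.

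In ARF-129 the distal part of the chromosome held a stretch without the gain. At the looser penalty the measured ratios placed it at chr16:91482017-93785591, with 259 probes. After removal of the probe effect described below it was placed at chr16:91482017-93793582, a length of 2.31 Mb with 260 probes, used here. Its mean was 0.07, against 0.44 over the 196 probes of its proximal flank and 0.35 over the 561 probes of its distal flank. The stretch minus the distal flank was -0.28 with an SE of 0.04, and minus the proximal flank -0.37 with an SE of 0.05. At the standard penalty the measured ratios did not separate it, while the ratios with the probe effect removed did. The stretch and its flanks were delimited on these same ratios, so the differences are a description.

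The other tumours showed smaller differences. The stretch minus its distal flank was 0.04 in ARF-110, 0.03 for ARF-112, 0.01 for ARF-104 and -0.02 for ARF-128. Minus its proximal flank it was 0.04 in ARF-110, -0.02 for ARF-112, -0.05 for ARF-104 and -0.11 for ARF-128, with an SE of 0.07 in the last. In 0.25 Mb windows ARF-129 ranged between -0.04 and 0.26 inside the stretch and between 0.14 and 0.60 outside it, so the windows overlap in part.

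**Figure D3:**
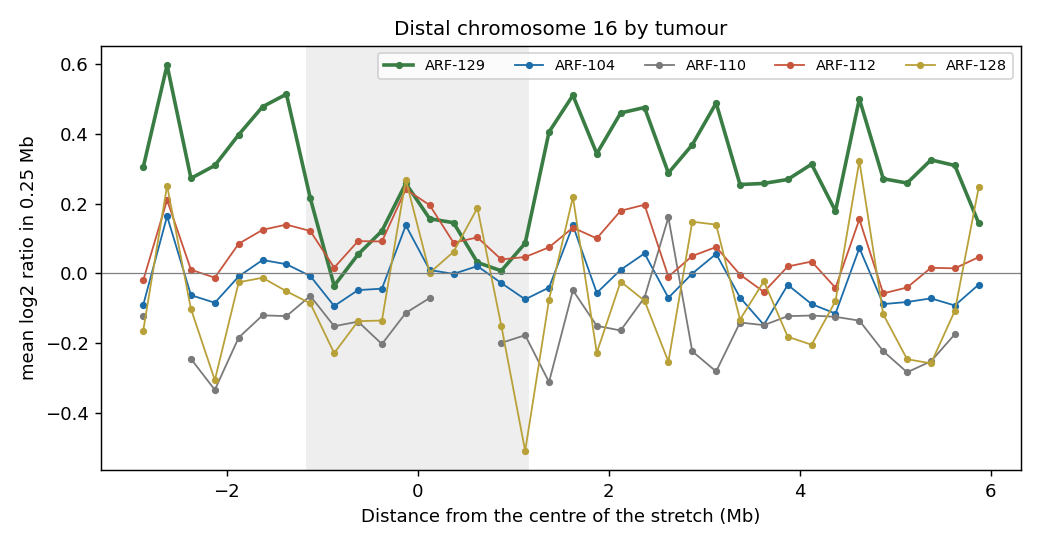
Mean log2 ratio in windows of 0.25 Mb (vertical axis) by distance from the centre of the low ARF-129 stretch (horizontal axis, Mb), 1 line per tumour, with the stretch in grey. The ARF-129 line drops toward the other tumours inside the grey zone. Outside it the ARF-129 windows range between 0.14 and 0.60 and lie above most windows of the other tumours, though ARF-128 is higher at the distal end.

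The segmentation placed each edge of the stretch between neighbouring probes, so the widths given here are probe spacings. The proximal edge lay in 5.61 kb between the probe named AK160991, just beyond Il10rb, and the next probe before Ifnar1. The distal edge lay in 8.62 kb inside Dop1b, the gene that the files call Dopey2, whose 3 probes inside had a mean of -0.04 in ARF-129 against 0.38 for its 12 probes outside. The same probes split as widely in ARF-112, at -0.13 inside and 0.31 outside, so Dop1b alone does not set ARF-129 apart. The edge probes are printed because they bound the change.
last probe before the stretch, AK160991, chr16:91476353-91476412: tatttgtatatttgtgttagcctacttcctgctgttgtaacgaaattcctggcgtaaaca
first probe in the stretch, chr16:91482017-91482076: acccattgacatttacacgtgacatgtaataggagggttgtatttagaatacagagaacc
last probe in the stretch, Dop1b, chr16:93793523-93793582: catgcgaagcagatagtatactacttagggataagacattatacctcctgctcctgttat
first probe beyond the stretch, Dop1b, chr16:93802202-93802261: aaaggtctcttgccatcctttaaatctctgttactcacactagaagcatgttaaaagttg
The first probe inside read -0.94 in ARF-129, but it also read -1.45 in ARF-128, -0.95 in ARF-112 and -0.92 in ARF-104, so it does not by itself place the edge. The first probe beyond read 0.88 in ARF-129, against -0.01 in ARF-104 and 0.22 in ARF-112. At the looser penalty the distal edge lay 1 probe earlier, before the last probe printed as inside, which read 0.28 in ARF-129.

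The low stretch held 31 gene names in full, and they are named here after their values were seen. Among receptors it held Ifnar1 and Ifngr2, subunits of the type I interferon and interferon gamma receptors. ARF-129 read 0.22 at Ifnar1 and -0.19 at Ifngr2, while at Ifnar2 and Il10rb, receptor genes in the proximal flank, it read 0.61 and 1.11. After the probe effect was removed these became 0.10 and -0.05 inside, and 0.34 and 0.48 in the flank.

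Single genes did not all follow the means. Gart, an enzyme of purine synthesis, read 0.11 in ARF-129, Son, a splicing factor, -0.16, and Itsn1, an endocytic scaffold, 0.12. Rcan1, an inhibitor of calcineurin, read 0.20 and Setd4, a methyltransferase gene, -0.13. In the flanks, Tiam1 read 0.43, Dscam, a neural adhesion gene, 0.34 over 70 probes and Erg, an ETS transcription factor, 0.39 over 23 probes. Against the split, Cbr1, a carbonyl reductase with 1 probe inside the stretch, read 0.66 and Kcne2, a potassium channel subunit, 0.48. In ARF-104, ARF-112 and ARF-128 Cbr1 read 0.46, 0.44 and 1.31, and Kcne2 0.21, 0.48 and 0.15. In the flanks Olig1, a glial transcription factor read by 1 probe, was at -0.43 and Ets2, another ETS factor, at -0.19. After the probe effect was removed, ARF-129 had 0.04 at Cbr1, 0.17 at Kcne2, 0.20 at Olig1 and 0.12 at Ets2.

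Runx1, a transcription factor of blood formation, read 0.34 over 12 probes in ARF-129, as high as many flank genes. It also read 0.38 in ARF-112, with 0.27 for ARF-128 and 0.10 for ARF-104, and became 0.17 in ARF-129 after the probe effect was removed. Over the 31 names inside, the median after that removal was 0.08 in ARF-129, and 1 reached 0.25. Over the 70 flank names the median was 0.36, and 57 reached 0.25. These counts use the array that defined the stretch and are a description.

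ARF-112 carried a short low stretch inside Lpp, a LIM-domain gene of cell adhesion sites known as a fusion partner in lipoma. It spanned chr16:24458294-24534376, 76.1 kb with 18 probes, all named Lpp. The mean there was -0.75 in ARF-112, or 59.3% of the reference, against -0.01 over the 58 Lpp probes before it and 0.20 over the 13 after it. The stretch minus the Lpp probes before it was -0.74 with an SE of 0.11. The stretch was delimited on the ARF-112 array itself, after removal of the probe effect described below, so this difference and the probe counts below are a description. At the standard penalty the measured ratios did not separate the stretch.

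The same 18 probes had means of 0.48 in ARF-129, 0.11 in ARF-128 and -0.01 in ARF-104. Single probes in ARF-112 ranged between -1.40 and 0.03 with a median of -0.77, and 17 of 18 were below 0. At 17 of 18 probes ARF-112 had the lowest ratio of the 4 denser arrays. ARF-110 has 1 probe in the stretch, at 0.07, and the sparser ARF-128 array reads 0.47 at it. Whether these probes lie in exons or introns was not analysed here, since no mm7 annotation was used.

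**Figure D4:**
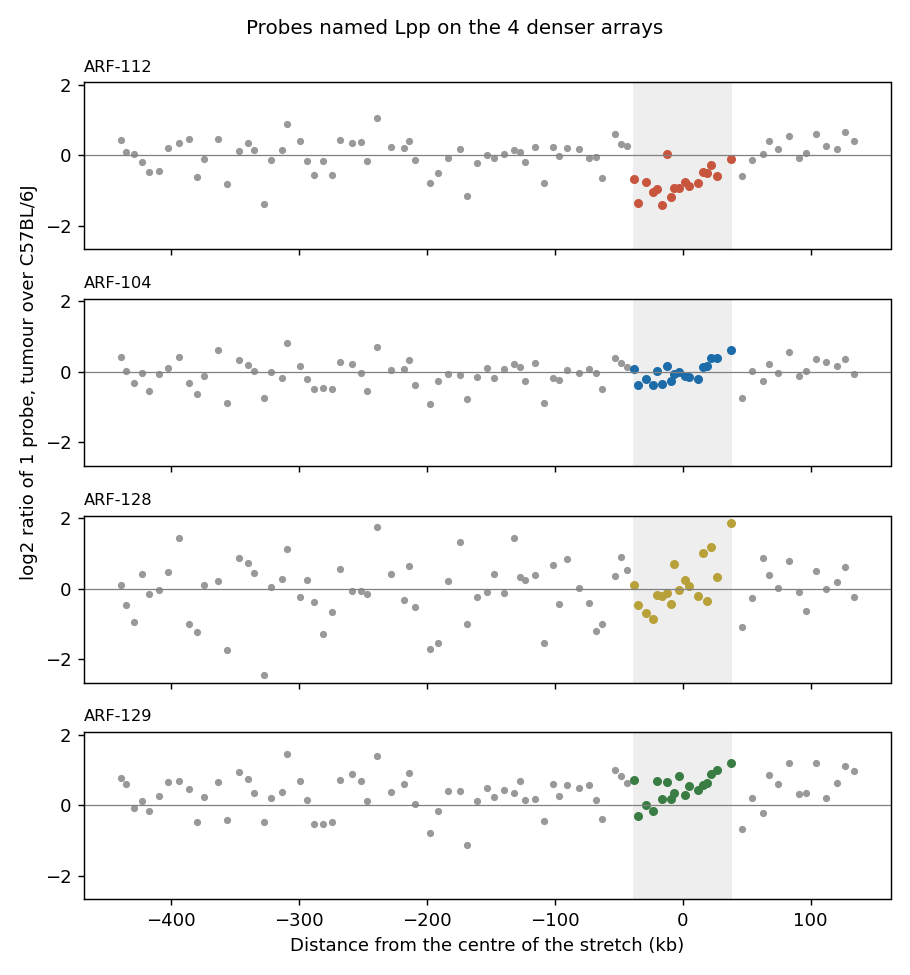
Log2 ratio of single Lpp probes (vertical axis) by distance from the centre of the low stretch (horizontal axis, kb) on the 4 denser arrays; coloured points lie in the stretch, in grey, and grey points are the other Lpp probes. In ARF-112, the array that defined the stretch, the coloured points lie between -1.40 and 0.03, below those of the other 3 arrays at 17 of 18 probes.

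The Lpp edge probes show where the stretch begins and ends. The last probe before it read 0.27 in ARF-112 and the first inside -0.68, which places the proximal edge in 5.48 kb.
last probe before the stretch, chr16:24452755-24452814: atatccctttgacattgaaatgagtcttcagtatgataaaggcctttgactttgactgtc
first probe in the stretch, chr16:24458294-24458353: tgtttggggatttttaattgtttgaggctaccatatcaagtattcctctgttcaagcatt
last probe in the stretch, chr16:24534317-24534376: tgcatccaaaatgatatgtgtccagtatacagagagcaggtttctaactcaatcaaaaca
first probe beyond the stretch, chr16:24542489-24542548: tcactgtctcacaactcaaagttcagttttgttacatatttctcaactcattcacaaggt
The distal edge is less sure. The last probe inside read -0.10 in ARF-112 against 0.64 in ARF-104 and 1.20 in ARF-129, and the first probe beyond read low on all 4 denser arrays, at -0.58 in ARF-112 and -0.74 in ARF-104. Segments drawn on the measured ratios at the looser penalty ended 1 probe earlier, at chr16:24523128.

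With the probe effect removed, the standard penalty called the Lpp stretch in ARF-112, lost at -0.82, and chr16:89801341-91476412 in ARF-129, gained at 0.40. On the measured ratios it called no segment under 3 Mb in any tumour. The looser penalty called 3: the Lpp stretch in ARF-112, the proximal flank of the low stretch in ARF-129, gained at 0.45, and chr16:35839016-36179111 in ARF-110, lost at -0.41 over 5 probes. The last covers part of the stefin A cluster, genes of cysteine protease inhibitors whose number differs between mouse strains, and the denser arrays have 36 probes there. Those averaged 0.16 in ARF-129, -0.09 in ARF-104, -0.12 in ARF-112 and -0.17 in ARF-128. At the 5 probes of ARF-110 the sparser ARF-128 array averaged -0.14. In ARF-110, 4 of these 5 were below 0. The first of them is named Stfa2l1, whose ARF-110 ratio, given below, is far under their mean, so the call leans on it. With segments of at least 3 probes the low run kept 3 probes, at -0.66.

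Single probes departed from their segment in the same direction in different tumours. The departure of a probe on chromosome 16 correlated at r = 0.90 between ARF-104 and ARF-112, 0.88 between ARF-104 and ARF-129, and 0.89 between ARF-112 and ARF-129, over 8891 to 8892 probes that share the design, the reference strain and the scan day. The denser ARF-128 array, scanned on another day, correlated with them at 0.62 to 0.68. ARF-110 correlated at 0.13 to 0.40 with the denser arrays and at 0.59 with the sparser ARF-128 array. Over all autosomes the same pairs gave similar values, such as 0.88 for ARF-104 with ARF-112, so this is not particular to chromosome 16.

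Base composition moved with these shared departures. Thymine made up 33.8% of the 445 probes with the lowest mean departure over ARF-104, ARF-112 and ARF-129, 31.1% of all probes and 28.1% of the 445 highest. Its correlation with the departure was r = -0.24 over 8889 probes, and that of adenine 0.16. The 3 lowest and the 3 highest probes with a gene name that all arrays hold are printed with T in capitals. In the order printed, the low ones hold 20, 21 and 32 T and the high ones 18, 20 and 17. Apart from the Zbtb20 probe they differ little.
low, Ripk4, chr16:98125585-98125644: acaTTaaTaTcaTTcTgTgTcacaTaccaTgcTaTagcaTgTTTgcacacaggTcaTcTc
low, AK173009, chr16:87447516-87447575: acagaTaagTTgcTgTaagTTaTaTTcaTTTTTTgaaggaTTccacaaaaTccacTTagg
low, Zbtb20, chr16:43382751-43382810: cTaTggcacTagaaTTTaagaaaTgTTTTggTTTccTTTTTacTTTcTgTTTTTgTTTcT
high, AK005497, chr16:35181277-35181336: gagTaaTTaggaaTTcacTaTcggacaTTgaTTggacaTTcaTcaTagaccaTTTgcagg
high, Adamts5, chr16:85894957-85895016: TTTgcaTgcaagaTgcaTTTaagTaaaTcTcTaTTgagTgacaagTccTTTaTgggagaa
high, Htr1f, chr16:64909434-64909493: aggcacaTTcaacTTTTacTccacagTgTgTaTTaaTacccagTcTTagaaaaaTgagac
The Ripk4 probe read -2.57 in ARF-128, -1.64 in ARF-112, -1.31 in ARF-129, -1.25 in ARF-104 and -0.53 in ARF-110. The Adamts5 probe read 1.92, 1.17, 1.81, 0.95 and 0.12 in the same order. Both are smallest in size in ARF-110. The 4 Ripk4 probes together read 0.06 in ARF-129 and -1.15 in ARF-128, and the 7 Adamts5 probes 0.64 in ARF-129 and 0.74 in ARF-128.

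Across tumours, limma found no 1 Mb bin of chromosome 16 that differed from the reference. Of 89 bins tested 0 passed an adjusted p of 0.05, against 3.9% of all bins called higher, 0.642% lower and 4.54% in either direction, and 1 had an unadjusted p under 0.05. That bin, chr16:66000001-67000000, had a mean of -0.16, and the smallest adjusted p on the chromosome was 0.186 (limma).

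Single genes gave more calls. Of 659 gene names with a value in every tumour, limma called 24 higher, or 3.64%, against 8.08% of all genes, and 32 lower, or 4.86%, against 6.7%; either direction made 14.8% of all genes. Of these 56 names, 47 had 1 probe in at least 1 tumour. When the shared departures of probes were subtracted, an alternative chosen after seeing the data, none was called. The median mean of the 24 higher names became 0.09 in place of 0.54, and that of the 32 lower -0.05 in place of -0.58. A change at a gene that the tumours share would be subtracted in the same way. The fall of means and calls was therefore largely fixed in advance, and it cannot tell a probe effect from a shared change. With the scan day as a random block 1 gene was called, and leaving out ARF-129, ARF-112 or ARF-104 gave none, against 76 higher and 59 lower without ARF-110.

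**Figure D5:**
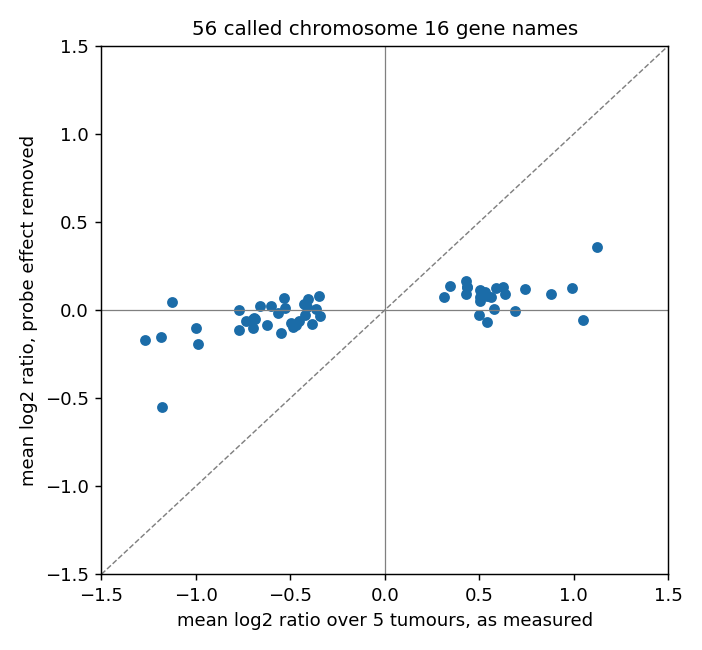
Mean log2 ratio over 5 tumours of the 56 called chromosome 16 gene names as measured (horizontal axis) and after removal of the probe effect (vertical axis), with the line of equality dashed. The points spread along the horizontal axis and most lie near 0 on the vertical axis, with Stfa2l1 the lowest at -0.55. The removal also subtracts changes that the tumours share.

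By the naming rule, 9 called names had at least 2 probes in every tumour. Adipoq, which encodes adiponectin, averaged -0.77 ± 0.30 (SD, n = 5; limma adjusted p = 0.014) and was below 0 in 5 of 5 tumours, with -0.98 for ARF-128, -0.93 for ARF-104, -0.91 for ARF-129, -0.80 for ARF-112 and -0.25 for ARF-110. With the probe effect removed its mean was 0.00. Rsl1d1, Dppa4, Btla, F830005K03Rik and Pmm2 were lower too, with means between -0.57 and -0.36, and AK046786, Cep20 and Ube2l3 higher, with means of 0.50, 0.43 and 0.35. With the probe effect removed none of these 8 was called: the lower ones had means between -0.06 and 0.02, above 0 in F830005K03Rik and Pmm2, and the higher ones had 0.11, 0.16 and 0.14.

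Of 32 names of cancer genes, 29 were above 0 in ARF-129, with a median of 0.31, against 687 of 821 names and a median of 0.31 on the whole chromosome. None was called higher and 1 lower by limma, against 3.64% and 4.86% of names on the whole chromosome. The lower one was Hes1, a Notch target read by 1 probe, with a mean of -0.35. With the probe effect removed that call was lost and the mean turned to 0.08. Prkdc, the DNA repair kinase, read 0.05 in ARF-129 over 26 probes and -0.36, -0.29, -0.27 and -0.22 in ARF-128, ARF-110, ARF-104 and ARF-112. Crebbp, a histone acetyltransferase, read 0.50 over 20 probes in ARF-129.

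Of 14 names of TNF, NF-kB, cytokine and interferon genes none was called, where 14.8% of all genes were, in either direction. In ARF-129, 11 of the 14 were above 0, with a median of 0.20. On the whole chromosome 687 of 821 names were, with a median of 0.31. Nfkbiz, an NF-kB regulator, read 0.19 in ARF-129 and 0.40, -0.01, -0.04 and -0.16 in ARF-128, ARF-110, ARF-112 and ARF-104. Socs1, a brake on cytokine signalling read by 1 probe, was below 0 in all 5 tumours, with a mean of -0.54 and an adjusted p of 0.054 (limma). With the probe effect removed its mean was -0.11, and it was above 0 in ARF-129, ARF-112 and ARF-104.

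Of 13 names of the DiGeorge region all were above 0 in ARF-129, with a median of 0.36. On the whole chromosome 687 of 821 names were, with a median of 0.31. Ranbp1, a regulator of nuclear transport, was the 1 name called higher, with a mean of 0.54. Over the whole chromosome 3.64% of names were called higher, and over all genes 8.08%. With the probe effect removed the Ranbp1 mean was 0.08, with no call. Of 26 names of the Down syndrome region 24 were tested and none of these was called, where 14.8% of all genes were. In ARF-110, where that region lies distal to the step, 22 of 24 were below 0 with a median of -0.14, against 381 of 659 names and a median of -0.03 on the whole chromosome. In ARF-129, 23 of 26 were above 0 with a median of 0.31, against 687 of 821 names and a median of 0.31 on the whole chromosome.

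Clusters that often vary between mouse strains held 38 names, of which 1 was called higher and 5 lower among 31 tested, where the whole chromosome had 3.64% higher and 4.86% lower and all genes 8.08% and 6.7%. Stfa2l1, of the stefin A cluster, averaged -1.18 ± 0.78 (SD, n = 5; limma adjusted p = 0.023) and ranged between -2.10 in ARF-110 and -0.11 in ARF-112. Its mean with the probe effect removed was -0.55. Krtap13-1, a hair keratin-associated gene read by 1 probe, lay between -0.77 and -0.47 in the 5 tumours, with a mean of -0.09 once the probe effect was removed. Whether the tumour mice differ from C57BL/6J at these loci was not tested.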

How the data were processed

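Per the file headers, the authors extracted a processed intensity in red and in green for every spot. Agilent Feature Extraction ran as version 8.5.1.1 for the sparser design, 9.5.3.1 for the denser ARF-128 array and 9.1.3.1 for the remaining arrays. The deposited scanner files also hold a log10 ratio per spot. The deposited value table holds the same ratios, log10 for the sparser and log2 for the denser design, uncentred, with column medians of 0 and 0.0185, and of 0.0200, 0.0232, 0.0491 and 0.0317. The build mm7 is stated in 1 header. Median red signal on chromosome 16 was 4.24 to 11.5 times its background, and the number of arrays limits the precision.

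Here log2 of processed red over green was taken, without control and outlier spots, probes spotted more than once were averaged, and arrays were centred on the autosomal median. Segments came from PELT with a least-squares cost, 5 probes or more and a penalty of 5 log n (3 log n as the looser penalty). The probe effect of an array is the median departure of each probe from its segment on the other tumours' denser arrays, scaled by regression. It also takes in changes that those tumours share within a segment. Bins and genes were fitted genome-wide with limma 3.58.1 (intercept, eBayes, Benjamini-Hochberg), and SEs of segment means cover probe noise only. Of 821 gene names, 500 had an accession, 14 a symbol and 4 a synonym in RefSeq's GRCm38.p6 table, used for names only, and 303 stayed as in the files. Named genes are list members, up to 10 called genes a direction with at least 2 probes in every tumour, and genes of focal segments; others are marked as chosen after their values were seen. Limma and the segmentation were tested on simulated data. The chromosome, lists and rules were chosen with earlier results of these data known. Scripts ran in Python 3.11.15 with pandas 2.3.3 and in R 4.3.3.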

Additional observations from a re-analysis of the deposited data

Results flagged for a closer look

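In 24 sets of values over 5 tumours, 3 had 1 tumour far from the other 4. The rule flags about 1 in 20 by chance in separate sets chosen without regard to their values. These sets overlap and include segments and genes chosen on the same values, so that rate is no benchmark here. The chromosome 16 mean of ARF-129 was 0.29, and its gap to the next tumour was 0.81 of the whole range. The proximal segment showed the same tumour apart, at 0.34 with a gap of 0.81, and is part of the same chromosome. Adipoq was -0.25 in ARF-110, the least negative of the 5, with a gap of 0.76. ARF-110 is the only tumour read on the sparser design alone, and the part of the design in that gap was not tested.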

How the results depend on the processing

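No paired analysis was possible because the tumours form a single group. The mean over 5 tumours ranged between -0.05 and 0.05 over 16 alternatives. The share of ARF-129 bins gained was 100% with centring without chromosome 16, on shared probes, with GC correction, at penalty 10 log n and at a call of 0.15, and 0% with normexp background correction or a call of 0.40; 30.3% of ARF-110 bins were lost at a call of 0.15. Focal changes numbered 0 as reported, 4 with normexp, 3 at penalty 3 log n, 1 with segments of at least 3 probes, 2 with the probe effect removed and 6 with that and penalty 3 log n. Genes called higher and lower were 24 and 32 as reported. The higher were 48 with the sparser ARF-128 array, 10 with centring on the mode, 58 when both ARF-128 arrays were averaged and 57 on shared probes. The lower were 51 with that average, 13 with normexp and 59 on shared probes. Both were 0 with the probe effect removed (1 and 0 at an unadjusted p under 0.05), 1 and 0 with the scan day block, and 7 and 12 with at least 2 probes. Leaving out 1 tumour gave 0 to 76 higher and 0 to 59 lower, 0 in both when ARF-129, ARF-112 or ARF-104 was left out. Bins called lower were 7 on shared probes. With normexp the low ARF-129 stretch minus its distal flank was -0.11 and the Lpp stretch minus the Lpp probes before it -0.29; on shared probes, 1 probe a side, the Lpp difference was -0.38. Ube2l3 reversed to -0.10 on shared probes, and F830005K03Rik, Pmm2 and Hes1 to 0.0193, 0.00702 and 0.0783 with the probe effect removed. The cause of these changes was not tested. Probe effect removal and GC correction were chosen after seeing the data. Median red signal over background was 4.24 on the denser ARF-128 array and 11.5 in ARF-129.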
